A study of Mus musculus with 12 samples.

Results

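The genes described here were 9 cAMP response element-binding protein (CREB)-linked genes and salt-inducible kinases (SIKs) of the mouse heart, namely Mir212, Crem, Sik1, Sik2, Sik3, Pde4b, Pde4d, Ppargc1a and Rgs2. They were taken by gene name from the 52858 rows of the deposited expression tables, and all 9 were among the 15240 rows that passed the filter on low values. The set was assembled after Mir212 had been seen to be higher after ischemia-reperfusion (IR) in these hearts. Values of the members in IR against non-IR hearts are therefore given as a description, without a test, whereas the comparisons between genotypes were tested. Mir212 passed the filter only because of its values after IR.

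The libraries came from isolated hearts of male mice aged 3 to 5 months, perfused through the aorta (Langendorff preparation), with 3 libraries in each of 4 groups. C57-non-IR and C57-IR hearts were from C57BL/6J mice, and Slit2-non-IR and Slit2-IR hearts were from Slit2-Tg mice, which carry a full-length human Slit2 cDNA under the CMV promoter, a promoter that is not restricted to the heart or to one cell type. The transgene was injected into C57 × CBA F1 oocytes, and the labels give C57BL/6J as the strain of both genotypes. After 20 min of equilibration, flow through IR hearts was stopped for 20 min and restored for 40 min, and non-IR hearts were perfused without interruption for 80 min. The comparisons address how transcripts differ between Slit2-Tg and C57BL/6J hearts, perfused or reperfused. An effect of the secreted protein Slit2 cannot be told apart here from other differences between the lines.

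The libraries held 16601154 to 24841291 reads on genes. Summed levels of 7 cardiomyocyte transcripts lay between 14446 and 22148 FPKM (fragments per kilobase, here scaled between libraries by median of ratios) in the 12 libraries. All 5 neutrophil markers were under 1 FPKM in every library. Atrial transcripts stood apart in Slit2-IR replicate 1, where 6 of them summed to 1695 FPKM, and were 240 FPKM in C57-IR replicate 2 against 26.6 to 114 FPKM in the other 10 libraries. The mouse Slit2 row lay between 0.169 and 0.222 FPKM in non-IR hearts of both genotypes, at 0.213 to 0.282 FPKM in C57-IR and at 0.0847 to 0.813 FPKM in Slit2-IR hearts. The transgene is a human cDNA, so this row does not check the genotype labels.

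CREB is a transcription factor that protein kinase A (PKA) phosphorylates when cyclic AMP (cAMP) is high, as after beta-adrenergic stimulation of cardiomyocytes, and it then switches on genes with a cAMP response element. SIKs are kinases of the AMPK family that hold the CREB coactivators (CRTCs) and class IIa histone deacetylases in the cytoplasm until PKA inhibits the SIKs. Several CREB targets feed back on the pathway, among them phosphodiesterases that break down cAMP, Crem, whose short ICER products repress CREB sites, and Sik1 itself.

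Mir212 is a microRNA gene at chr11:75173388-75173478 on the plus strand (GRCm38.p6), within the first intron of the noncoding gene 1700016P03Rik, which spans chr11:75172560-75177633 on the same strand. Mir132 lies in that intron too, at chr11:75173682-75173747. The hairpin and mature sequences from RefSeq are shown because the Mir212 row counts reads on the 91-base hairpin locus, while the mature products carry the targeting seed. In the hairpin the capitals mark the 5p and 3p mature products, and in the mature sequences they mark the seed, bases 2 to 8.
Mir212 hairpin: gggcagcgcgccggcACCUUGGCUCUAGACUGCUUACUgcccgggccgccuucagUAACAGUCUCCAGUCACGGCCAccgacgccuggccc
miR-212-3p: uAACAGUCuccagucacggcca
miR-132-3p: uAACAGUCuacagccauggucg
miR-212-5p: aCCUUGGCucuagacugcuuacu
miR-132-5p: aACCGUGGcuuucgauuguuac
The 3p products of Mir212 and Mir132 had the same seed and the same base at 17 of their 22 positions, and were the only 2 of the 1738 mature mouse sequences in the table with this seed. The 5p products had seeds that differed from each other.

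Promoter sequence was given for 6 of the 9 members (Rgs2, Pde4b, Ppargc1a, Sik3, Sik2 and Pde4d), as windows of 250 bases before to 50 bases after an annotated start, with 4 windows for Pde4b. They were searched for the cAMP response element letters, the full site TGACGTCA and the half-sites TGACG and CGTCA, which are each other's reverse complement, so both strands are covered. A full site holds both half-sites. The full site was in 0 of the 9 member windows and in 1.79% of all 32851 promoter windows of the table, and a half-site was in 5 of the 9 windows and in 20.8% of all windows. The 25-base stretches around the matches are shown to place the letters a reader would look for in CREB-linked genes, with the half-site in capitals, written 5′ to 3′ along the gene's strand.
Rgs2, chr1:144004320-144004344, minus strand: gcggcgcctaCGTCAacagcgccct
Rgs2, chr1:144004202-144004226, minus strand: ggggcgtggcTGACGcctccaggtc
Pde4b, chr4:102421511-102421535, plus strand: tttggctgcaCGTCAattttctcat
Ppargc1a, chr5:51567760-51567784, minus strand: tgccctcccaCGTCActgagctcca
Sik3, chr9:46012677-46012701, plus strand: cttcgggcagTGACGcgcgtccgca
Sik3, chr9:46012694-46012718, plus strand: cgtccgcacgTGACGcgcggttgcc
Sik3, chr9:46012753-46012777, plus strand: cctcccggagTGACGtctgtcggca
Sik2, chr9:51009060-51009084, minus strand: cccggcccccTGACGtcggctcacg
Sik2, chr9:51009047-51009071, minus strand: cgtcggctcaCGTCAgcgccggcgc
These matches lay in 5 of the 6 genes with a window, and Pde4d had none. The share over all promoters was counted per window and not per gene, and a gene with several windows has more places for a match. Base composition of the windows was not taken into account, so nothing is read from the count of genes. The Pde4b match was in 1 of its 4 windows, 34 bases before the start of that transcript. The Ppargc1a match lay 49 bases before its start, and the single nearest to a start was that of Sik2, which began 1 base before it. A match of letters is a description of these windows and does not say that CREB binds there.

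Mir212 transcripts were few. C57-non-IR hearts had 1.94, 0 and 0 FPKM (3, 0 and 0 reads), and C57-IR hearts had 4.41, 8.91 and 6.36 FPKM (7, 16 and 13 reads). Slit2-non-IR hearts had 1.06, 0.953 and 1.74 FPKM (2, 2 and 4 reads), and Slit2-IR hearts had 7.58, 9.59 and 3.94 FPKM (14, 21 and 8 reads). All 6 IR hearts lay above all 6 non-IR hearts. Scaled for depth, the summed reads were 11.3-fold higher with IR in C57BL/6J hearts (36 against 3 reads, exact 95% interval 3.55 to 57.1) and 5.57-fold higher in Slit2-Tg hearts (43 against 8 reads, interval 2.59 to 13.7). These intervals cover counting error only and, like the other IR values, describe a contrast on which the set was chosen. On the log2(FPKM + 1) scale the difference was 2.36 ± 0.41 (SE, n = 3 per group) in C57BL/6J hearts and 1.78 ± 0.41 in Slit2-Tg hearts. Without C57-non-IR replicate 1, the only C57-non-IR heart with reads, the first of these was 2.87.

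The host gene was higher with IR as well. 1700016P03Rik (ENSMUSG00000085609) had 0.544, 0.268 and 0.603 FPKM in C57-non-IR hearts and 1.66, 3.88 and 3.51 FPKM in C57-IR hearts. In Slit2-non-IR hearts it had 0.335, 0.452 and 0.504 FPKM, and in Slit2-IR hearts 0.913, 3.03 and 1.98 FPKM. Again no IR heart lay below a non-IR heart, and the means differed 6.39-fold in C57BL/6J and 4.59-fold in Slit2-Tg hearts. Mir132, with 0 to 8 reads in a library, did not pass the filter, and its levels in IR hearts (0.746 to 5.38 FPKM) overlapped those in non-IR hearts (0 to 1.40 FPKM). Its group means were still higher with IR, at 0.760 FPKM in C57-non-IR and 3.65 FPKM in C57-IR hearts. In Slit2-Tg hearts they were 0.219 FPKM without IR and 2.38 FPKM with IR, from these few reads. The libraries were not small RNA libraries, so these rows are not levels of the mature microRNAs. How the counting divided reads between the hairpin rows and the surrounding intron is not given in the sources used here.

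**Figure D1:**
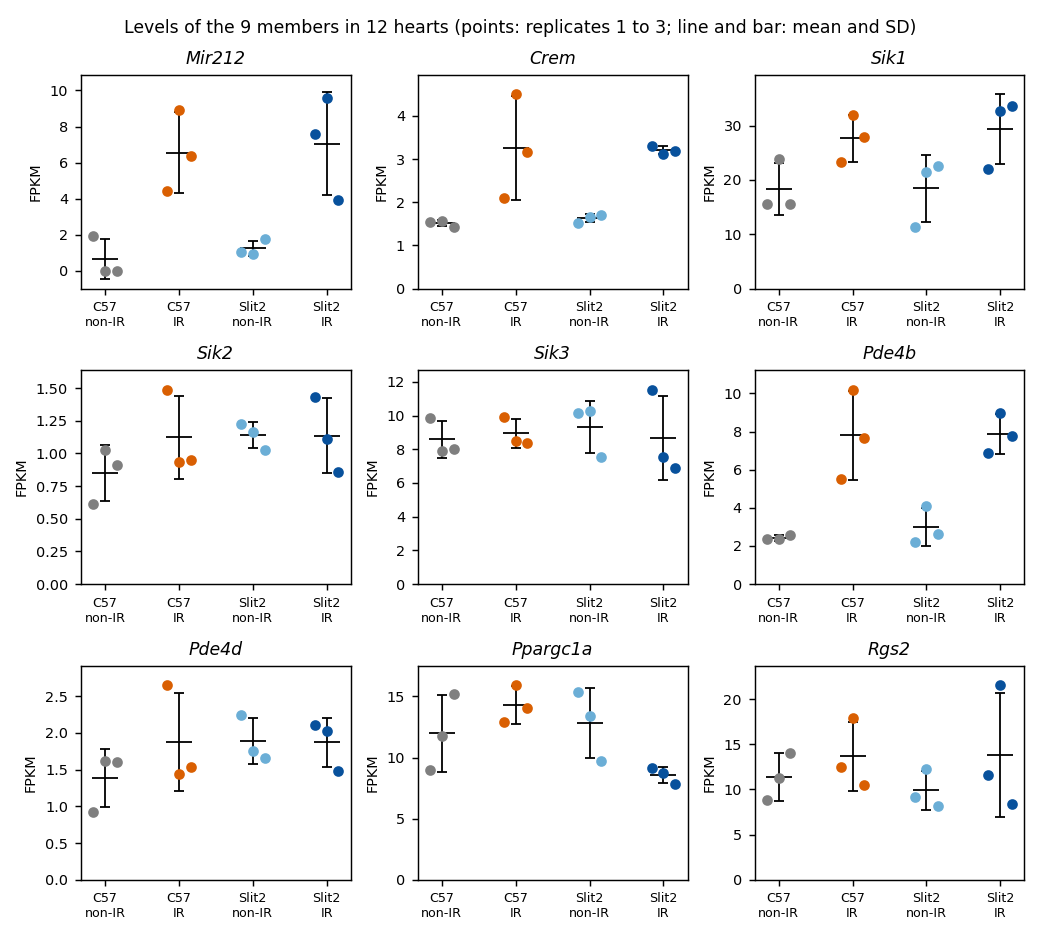
FPKM (y axis) of each of the 9 genes in the 12 hearts, with points for replicates 1 to 3 of each group and a line and bar for the group mean and SD. For Mir212, Crem and Pde4b every IR heart sits above every non-IR heart, and for Ppargc1a all 3 Slit2-IR hearts, at 7.86 to 9.17 FPKM, sit below all C57-IR and all Slit2-non-IR hearts.

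Crem (chr18:3266048-3337748, minus strand), which encodes the cAMP response element modulator, was at 1.53, 1.56 and 1.43 FPKM in C57-non-IR hearts and at 2.11, 4.51 and 3.16 FPKM in C57-IR hearts. It was at 1.53, 1.65 and 1.71 FPKM in Slit2-non-IR hearts and at 3.29, 3.11 and 3.20 FPKM in Slit2-IR hearts. The non-IR values of both genotypes were nearly level, and the spread after IR was wider in C57BL/6J (SD 1.20) than in Slit2-Tg hearts (SD 0.0891). The means were 2.16-fold higher with IR in C57BL/6J and 1.97-fold higher in Slit2-Tg hearts, with log2 differences of 0.72 ± 0.16 and 0.68 ± 0.16 (SE, n = 3 per group). The gene-level value does not separate the activator forms from ICER, and a long noncoding RNA, Gm6225, overlaps the gene.

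Pde4b (chr4:102087543-102607259, plus strand) and Pde4d (chr13:108449948-109953461, plus strand) encode phosphodiesterases that hydrolyse cAMP. Pde4b was at 2.34, 2.35 and 2.59 FPKM in C57-non-IR hearts and at 5.53, 10.2 and 7.67 FPKM in C57-IR hearts. In Slit2-Tg hearts it was at 2.20, 4.11 and 2.64 FPKM without IR and at 6.85, 8.95 and 7.79 FPKM with IR. The lowest IR heart exceeded the highest non-IR heart in both genotypes, with means 3.22-fold higher in C57BL/6J and 2.63-fold higher in Slit2-Tg hearts and log2 differences of 1.33 ± 0.20 and 1.18 ± 0.20 (SE). C57-IR replicate 2, the library with 240 FPKM of atrial transcripts, had the highest Pde4b and the highest Crem. It was also the highest C57-IR heart for Mir212, Sik1, Ppargc1a and Rgs2. Slit2-IR replicate 1, with 1695 FPKM of atrial transcripts, had the lowest Pde4b of its group (6.85 FPKM) and the highest Crem of its group (3.29 FPKM). The part of atrial tissue in these levels was not tested. Without C57-IR replicate 2 the log2 difference with IR in C57BL/6J hearts was 1.14 for Pde4b and 0.52 for Crem.

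Pde4d showed no such separation by perfusion. Its levels were 0.929, 1.62 and 1.61 FPKM in C57-non-IR, 2.65, 1.44 and 1.54 FPKM in C57-IR, 2.25, 1.75 and 1.66 FPKM in Slit2-non-IR and 2.10, 2.03 and 1.49 FPKM in Slit2-IR hearts. The IR and non-IR hearts overlapped in both genotypes, with log2 differences of 0.26 ± 0.18 in C57BL/6J and -0.01 ± 0.18 in Slit2-Tg hearts (SE). Both phosphodiesterase genes have many transcript forms, which cannot be told apart at gene level.

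Among the kinases, Sik1 (chr17:31844248-31855792, minus strand), the member of the family that CREB itself induces, was the most abundant. It was at 15.5, 23.8 and 15.5 FPKM in C57-non-IR hearts, 23.2, 31.9 and 28.0 FPKM in C57-IR hearts, 11.4, 21.5 and 22.5 FPKM in Slit2-non-IR hearts and 21.96, 32.6 and 33.5 FPKM in Slit2-IR hearts. The IR means were 1.52-fold and 1.59-fold higher in C57BL/6J and Slit2-Tg hearts, with log2 differences of 0.59 ± 0.26 and 0.67 ± 0.26 (SE). In each genotype 2 of the 3 IR hearts lay above the highest non-IR heart, so the groups overlapped.

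Sik3 (chr9:46012820-46224194, plus strand), a more broadly expressed relative, was at 9.84, 7.89 and 8.04 FPKM in C57-non-IR and 9.94, 8.51 and 8.36 FPKM in C57-IR hearts. In Slit2-Tg hearts it was at 10.1, 10.3 and 7.54 FPKM without IR and 11.5, 7.56 and 6.89 FPKM with IR. Sik2 (chr9:50892801-51009073, minus strand) was the least abundant, between 0.616 and 1.49 FPKM in the 12 hearts, and its row overlaps the end of the neighbouring gene Ppp2r1b. Neither kinase separated IR from non-IR hearts, and their log2 differences with IR lay between -0.11 and 0.19 in the 2 genotypes.

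FPKM corrects for transcript length, so the levels of the 3 kinases can be set beside each other. Sik1 made up 65.3% ± 6.71 (SD, n = 3) of the summed SIK FPKM in C57-non-IR hearts, 73.1% ± 5.32 in C57-IR, 62.6% ± 11.4 in Slit2-non-IR and 74.4% ± 10.03 in Slit2-IR hearts. The share did not differ between genotypes beyond its spread, by 1.29 percentage points after IR (exact permutation test, two-sided, p = 0.9) and by -2.68 points without IR (exact permutation test, p = 0.8), where 3 against 3 hearts cannot give a p below 0.1. Over the 12 libraries, Sik1 and Sik2 had a Pearson r of -0.00 and Sik1 and Sik3 an r of -0.51, given as a description since the hearts fall into 4 groups.

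**Figure D2:**
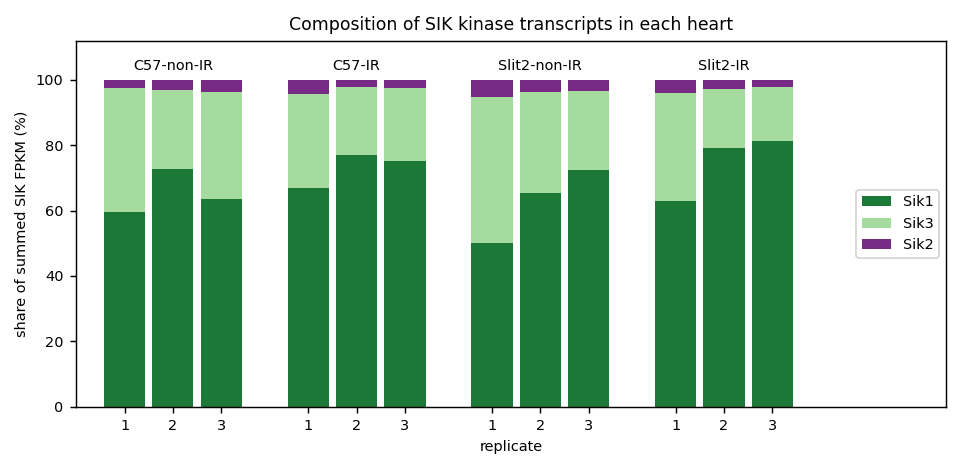
Share of the summed SIK FPKM (y axis, %) taken by Sik1, Sik3 and Sik2 in each heart, with 1 bar per library grouped by genotype and perfusion. Sik1 takes the largest share in every heart, with group means of 62.6% to 74.4%, and Sik2 the smallest.

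Ppargc1a (chr5:51454250-51567726, minus strand) encodes PGC-1alpha, a coactivator that drives mitochondrial biogenesis and fatty acid oxidation and is a known CREB target. It was at 8.94, 11.8 and 15.2 FPKM in C57-non-IR hearts and at 12.9, 15.9 and 14.04 FPKM in C57-IR hearts. In Slit2-non-IR hearts it was at 15.4, 13.4 and 9.68 FPKM, and in Slit2-IR hearts at 9.17, 8.74 and 7.86 FPKM. The Slit2-IR hearts had the lowest mean, at 8.59 ± 0.667 FPKM (SD, n = 3) against 14.3 ± 1.53 in C57-IR, 12.8 ± 2.90 in Slit2-non-IR and 11.98 ± 3.14 in C57-non-IR hearts, and the 3 other groups overlapped each other. C57-non-IR replicate 1, at 8.94 FPKM, lay within the Slit2-IR range, so these 2 groups overlapped as well. The log2 difference with IR was 0.26 ± 0.19 (SE) in C57BL/6J hearts and -0.51 ± 0.19 in Slit2-Tg hearts.

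Rgs2 (chr1:143999338-144004161, minus strand), a regulator of G protein signalling that dampens Gq-coupled receptors, was at 8.81, 11.2 and 14.1 FPKM in C57-non-IR and 12.5, 17.9 and 10.6 FPKM in C57-IR hearts. It was at 9.21, 12.3 and 8.17 FPKM in Slit2-non-IR and 11.6, 21.6 and 8.40 FPKM in Slit2-IR hearts. IR and non-IR hearts overlapped in both genotypes, with log2 differences of 0.24 ± 0.30 and 0.37 ± 0.30 (SE). In each IR group replicate 2 was the highest.

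**Figure D3:**
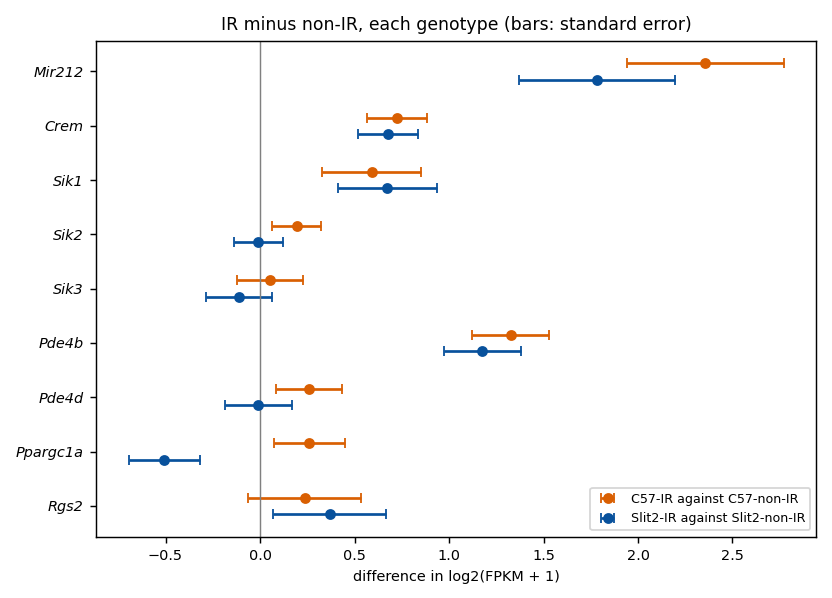
Difference in log2(FPKM + 1) between IR and non-IR hearts (x axis) for each of the 9 genes (y axis), with 1 point per genotype and bars for the standard error. Mir212, Pde4b, Crem and Sik1 lie to the right of 0 in both genotypes, from 0.59 to 2.36, as does Rgs2 at 0.24 ± 0.30 and 0.37 ± 0.30 (SE). Ppargc1a lies to the right in C57BL/6J and to the left in Slit2-Tg hearts.

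Counted together, 3 of the 9 members (Mir212, Crem and Pde4b) had every C57-IR heart above every C57-non-IR heart and no member was separated the other way, where 13.8% of all tested genes had groups that did not overlap in either direction. In Slit2-Tg hearts the same 3 genes were separated upwards and Ppargc1a downwards, beside 16.9% of all tested genes. Over both genotypes, with 6 hearts a side, these 3 genes were separated, all upwards, beside 3.41% of all tested genes. Nothing is read from these counts, since the set was chosen on this contrast. RNA of heart tissue cannot tell fewer cells of a type from less RNA per cell.

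The comparison of genotypes was not the contrast that led to the choice of the genes, although earlier results of these data were known when the set was made. In Slit2-IR against C57-IR hearts, 0 of the 9 members passed an adjusted p of 0.05 by limma, as did 0 by limma-voom, where 0.0459% and 0.0394% of all tested genes passed. At an unadjusted p under 0.05 there was 1 member by limma and 1 by limma-voom, in both cases beside 3.16% of all genes by limma. That member was Ppargc1a, which was 0.601-fold the C57-IR level in Slit2-IR hearts, a log2 difference of -0.67 ± 0.19 (SE, 95% confidence interval -1.08 to -0.26). It was lower in 3 of 3 Slit2-IR hearts than in any C57-IR heart, a separation that 6.47% of all tested genes showed in one direction or the other, with an unadjusted p of 0.00425 and an adjusted p of 1.0 by limma, so the difference did not pass over all genes. The exact permutation test gave p = 0.1, the smallest that 3 against 3 hearts allow. Cardiomyocyte transcripts summed to 16673 to 20574 FPKM in C57-IR and 17335 to 20531 FPKM in Slit2-IR hearts. The share of reads on mitochondrial genes was 25.4% to 25.98% in C57-IR and 19.7% to 23.8% in Slit2-IR hearts, without overlap, and 23.9% to 25.3% against 21.96% to 23.3% in the non-IR hearts of the same genotypes. The part of either in the Ppargc1a difference was not tested. The 8 other members differed by between -0.07 and 0.07 on the log2 scale, with all of their groups overlapping. The 95% intervals were narrowest for Sik2 (-0.28 to 0.30) and widest for Mir212 (-0.85 to 0.97).

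Without IR, 0 of the 9 members passed in Slit2-non-IR against C57-non-IR hearts by limma or limma-voom, where 0.0394% and 0.0262% of all tested genes passed. At an unadjusted p under 0.05 there were 0 members by either tool, beside 3.19% of all genes by limma. The log2 differences ran from -0.18 for Rgs2 to 0.64 for Mir212, whose groups were at 0 to 4 reads. The Mir212 difference was 1.15 without C57-non-IR replicate 1 (unadjusted p = 0.00511, adjusted p = 1.0 by limma), 0.38 without C57-non-IR replicate 2 or 3, and 2.26 with a pseudocount of 0.1 (unadjusted p = 0.0328, adjusted p = 0.999 by limma), so its size depended on which libraries were kept and on the pseudocount. The C57-non-IR hearts left in the first of these fits had 0 reads of Mir212 each, so its p rests on a group without spread. Pde4d was the single member whose groups did not overlap, with all 3 Slit2-non-IR hearts above the C57-non-IR hearts, beside 9.2% of all tested genes. Its difference of 0.28 ± 0.18 (SE) had an unadjusted p of 0.134 and an adjusted p of 1.0 by limma, and an exact permutation p of 0.1.

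**Figure D4:**
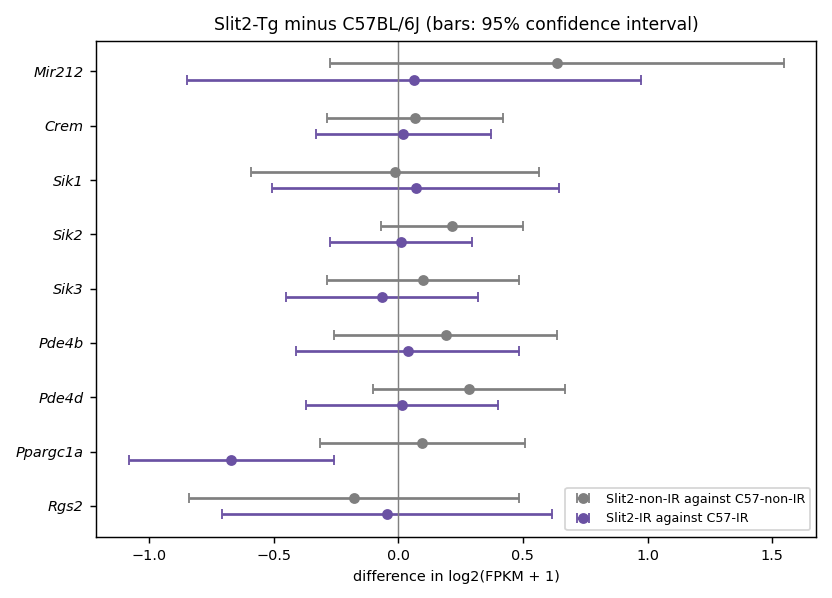
Difference in log2(FPKM + 1) between Slit2-Tg and C57BL/6J hearts (x axis) for each of the 9 genes (y axis), with 1 point for non-IR and 1 for IR hearts and bars for the 95% confidence interval. The interval of Ppargc1a after IR, -1.08 to -0.26, is the single one that does not include 0, and its adjusted p over all genes is 1.0 by limma.

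Averaged over both perfusions, 0 of the 9 members passed by limma or by limma-voom between Slit2-Tg and C57BL/6J hearts, where 0.131% and 0.105% of all tested genes passed. At an unadjusted p under 0.05 there were 0 members by limma and 1 (Ppargc1a) by limma-voom, beside 4.13% of all genes by limma. The interaction, which tests whether the IR difference itself differs between the genotypes, passed for 0 members and 0% of all tested genes by limma and by limma-voom. It had an unadjusted p under 0.05 for 1 member by each tool, beside 1.86% of all genes by limma. This was again Ppargc1a, with a difference of -0.77 ± 0.26 (SE, unadjusted p = 0.0144, adjusted p = 1.0 by limma). The IR differences of Mir212, Crem, Sik1 and Pde4b in the 2 genotypes were within 1 SE of each other, with interaction values of -0.57 ± 0.59, -0.05 ± 0.23, 0.08 ± 0.37 and -0.15 ± 0.29 (SE). That of Mir212 was -1.09 without C57-non-IR replicate 1 (unadjusted p = 0.0304, adjusted p = 1.0 by limma) and -2.20 ± 1.31 with a pseudocount of 0.1 (unadjusted p = 0.122, adjusted p = 1.0 by limma). In the first of these fits the C57-non-IR hearts that were left had 0 reads of Mir212 each.

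The wider pathway was followed in 102 further genes in 9 lists, of which 94 were tested. The lists were chosen with earlier results of these data known, so their counts and p-values with IR are not independent support for the set. Over both genotypes, 10 of the 94 rose with IR and 0 fell (adjusted p under 0.05 by limma), a share of 10.6% beside 3.49% of all tested genes. By limma-voom 14 passed, beside 3.87% of all genes. These 10 lay in 2 lists. In the list of other CREB target genes 8 of 18 rose, with a median log2 difference of 1.08 over the 18 genes and of 0.0036 over all genes tested. The 4 with the largest differences were Nr4a3, Atf3, Gem and Nr4a2, and the others, named after their values were seen, were Nr4a1, Junb, Egr1 and Nfil3. Several of these 8 are immediate early genes, which also respond to stimuli other than cAMP. In the list of other R4 regulators of G protein signalling, the family of Rgs2, 2 of 6 rose.

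The orphan nuclear receptor genes Nr4a3 and Nr4a2 were 32.0-fold and 5.11-fold higher with IR over both genotypes (log2 differences 3.72 ± 0.25 and 1.995 ± 0.22 SE, adjusted p of 5.7e-05 and 0.00151 by limma). Nr4a3 was at 0.554 to 0.971 FPKM in the 6 non-IR hearts and at 13.3 to 37.7 FPKM in the 6 IR hearts. Atf3, a stress-induced repressor of the same bZIP class as CREB, was 6.29-fold higher (2.55 ± 0.26, adjusted p = 0.000844 by limma), and Gem, a small GTPase that restrains calcium channels, was 4.56-fold higher (2.03 ± 0.29, adjusted p = 0.00426 by limma). Rgs16 rose by 1.63 ± 0.29 on the log2 scale (adjusted p = 0.0102 by limma) and Rgs1 by 0.37 ± 0.07 (adjusted p = 0.0161 by limma), the latter from levels of 0.0800 to 0.250 FPKM in non-IR hearts. Within each genotype, Nr4a3, Nr4a2 and Atf3 passed in C57BL/6J and again in Slit2-Tg hearts, 3 of 94 genes each (3.19%) beside 0.459% and 0.525% of all tested genes. By limma-voom 3 and 5 passed, beside 0.21% and 0.794% of all genes. With a block for the replicate number, 5 of the 94 passed by limma in Slit2-Tg hearts. The count of 3 in Slit2-Tg hearts was 1 without either Slit2-IR replicate 1 or 2, or without any 1 Slit2-non-IR heart, and 5 without C57-IR replicate 2. In C57BL/6J hearts the count was 8 without C57-IR replicate 1 and 1 without any other single C57BL/6J heart.

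The other 7 lists held no gene that passed by limma in the fit without a replicate block. With the block, 2 genes of cAMP production and 1 of the SIK upstream list passed. Over both genotypes, 0 genes passed by limma among 13 of cAMP production, 9 PKA subunits and inhibitors, 7 CREB factors and coactivators, 12 other cAMP phosphodiesterases, 9 of the SIK upstream kinase complex and class IIa deacetylases, 10 other AMPK-related kinases and 10 PGC-1 relatives and partner factors. At an unadjusted p under 0.05 these lists held 4, 1, 1, 0, 2, 3 and 1 genes by limma, where 15.9% of all genes had such a p. By limma-voom 1 gene of cAMP production and 1 PGC-1 relative passed the adjusted threshold and 0 of the others. In none of the 94 genes did the genotype contrasts or the interaction pass by limma or limma-voom. The unadjusted counts by limma were 2 in IR hearts, 1 in non-IR hearts, 3 over both and 0 for the interaction (3, 2, 3 and 1 by limma-voom).

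**Figure D5:**
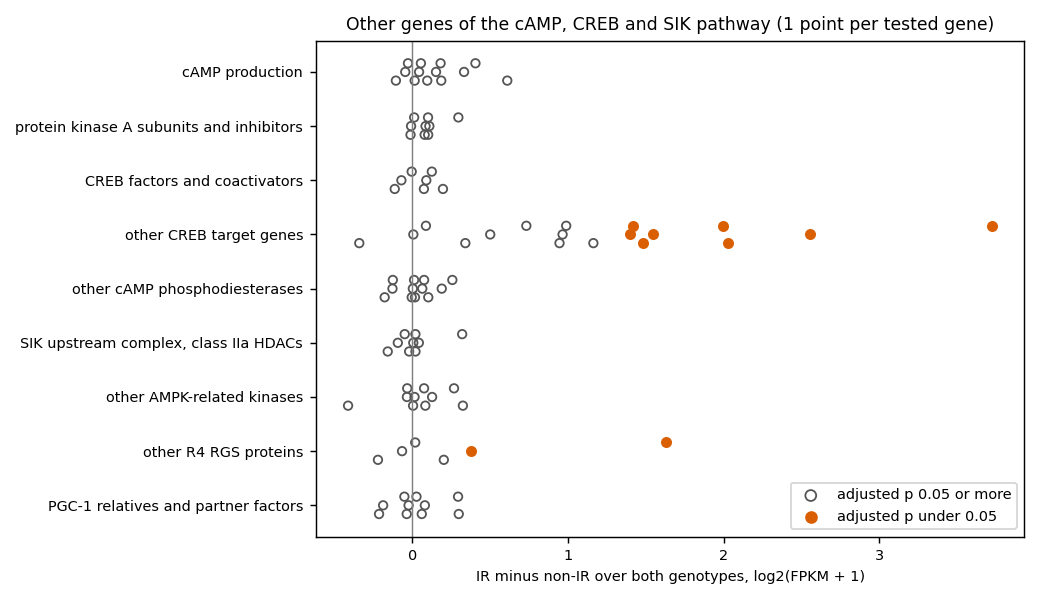
Difference in log2(FPKM + 1) between IR and non-IR hearts over both genotypes (x axis) for the 94 tested pathway genes, 1 point per gene, in 9 lists (y axis), with filled points for an adjusted p under 0.05 by limma. Filled points lie in the lists of other CREB target genes (8 of 18) and other R4 RGS proteins (2 of 6), all to the right of 0.

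The tested genes whose log2(FPKM + 1) followed Mir212 most closely over the 12 libraries were Larp7 (Pearson r of 0.97), Rnf122 (0.95), Phlda1 (0.94), Txndc11 (0.94) and Ggct (0.93). The host gene had an r of 0.83 with Mir212 and Mir132 an r of 0.58. For Sik1 they were a feature that the tables leave unnamed (r of 0.94), Cebpd (0.93), Rasd1 (0.93), Ackr3 (0.92) and Klf6 (0.92). These values describe points that share the step from non-IR to IR and the same libraries, and they carry no test.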

How the data were processed

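RNA was measured in 12 perfused mouse hearts, 3 per group. Genotype came from the labels, and IR or non-IR from the letters of the sample titles read against the groups of the methods. Per the labels and methods, total RNA was extracted with TRIzol, made into libraries (NEBNext Ultra RNA kit) and read from both ends on an Illumina HiSeq. HISAT2 and mm10 are named in the submitters' processing notes. The counting program, annotation release and use of strand are not given in the sources used here. The authors deposited FPKM per gene with gene lengths. FPKM × length came out as whole reads for 100% of values (within 0.01), with 1 median-of-ratios scaling shared by all libraries, so the depth of 16601154 to 24841291 reads on genes could be recovered.

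Genes were kept with the equivalent of 10 reads in at least 3 libraries and 15 reads in all. The main test was limma 3.58.1 (R 4.3.3) with a variance trend on log2(FPKM + 1), a pseudocount of 1, 1 fit of all 12 libraries, and Benjamini-Hochberg adjustment over the 15240 genes in each of 7 contrasts. On this scale a low gene shows less than its full fold change. The script was tested on simulated data. Single values were compared with two-sided exact permutation tests (scipy 1.17.1). Alternatives were a pseudocount of 0.1, looser and stricter filters, TMM scaling, limma-voom on the recovered reads, only the 6 libraries compared, a replicate block, and leaving out each library. An alternative without the 2 libraries with most atrial transcripts was added after the data were seen.

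The replicate numbers in the titles were checked for pairing: deviations from the group means of same-numbered libraries correlated at 0.143 to 0.294 in Slit2-IR against Slit2-non-IR and at 0.154 to 0.362 in Slit2-IR against C57-IR hearts, above 0.1 in all pairs. In the other comparisons 1 pair each was below 0.1 (0.083 and 0.038). Nothing in the labels ties a number to a shared animal or day. The labels give the replicates as separate samples, and p-values measure the spread between them.

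The members, the pathway lists and the marker lists were chosen with earlier results of these data known. The text names all 9 members, Mir132, up to 4 genes of each pathway list that passed in IR against non-IR over both genotypes, and the 5 genes most like Mir212 and Sik1. Markers of endothelial, fibroblast, smooth muscle, macrophage, erythroid, adipocyte, lung and skeletal muscle cells were also summed. Endothelial sums were 155 to 252 FPKM, fibroblast 106 to 211, smooth muscle 45.4 to 103, macrophage 167 to 370, erythroid 1.47 to 49.0, adipocyte 0 to 16.5, lung 0.0582 to 12.2 and skeletal muscle 0.752 to 1.40 FPKM. Lung sums reached 9.55 FPKM in C57-non-IR, 10.8 in C57-IR and 12.2 in Slit2-non-IR but 0.173 FPKM in Slit2-IR hearts. Adipocyte sums reached 0.847 FPKM in C57-non-IR, 16.5 in C57-IR, 7.65 in Slit2-non-IR and 9.71 in Slit2-IR hearts. The part of such tissue in the member levels was not tested.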

Additional observations from a re-analysis of the deposited data

Results flagged for a closer look

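Ppargc1a was the single result singled out for a difference between the IR responses of the genotypes. The C57-IR hearts (12.9, 15.9 and 14.04 FPKM) overlapped the C57-non-IR hearts (8.94 to 15.2 FPKM), with 1 of them above the highest non-IR heart. All 3 Slit2-IR hearts (9.17, 8.74 and 7.86 FPKM) lay below the lowest Slit2-non-IR heart, at 9.68 FPKM. The difference between the 2 responses was -0.77 ± 0.26 (SE) on the log2 scale, with an unadjusted p of 0.0144 and an adjusted p of 1.0 by limma over the 15240 genes tested, so it did not pass the correction. An unadjusted interaction p under 0.05 by limma was found for 1.86% of all tested genes. Slit2-IR and Slit2-non-IR hearts did not overlap for 16.9% of them. Over 19 alternatives the unadjusted p of Ppargc1a by limma or limma-voom ran from 0.00315 to 0.0426 and its adjusted p from 0.999 to 1.0. These alternatives refit the same hearts on which Ppargc1a was singled out, so they are not independent support.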

How the results depend on the processing

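In the genotype contrasts and the interaction 0 members passed under any alternative in which they could be fitted. The difference of Ppargc1a between Slit2-IR and C57-IR hearts stayed between -0.74 and -0.60 without any 1 library, with an unadjusted p by limma or limma-voom of 0.000652 to 0.0265 and an adjusted p of 0.698 to 1.0 over 20 alternatives. These fits share the same hearts and are not independent of each other. Mir212, whose non-IR hearts held 0 to 4 reads, was 4.55 higher with IR in C57BL/6J and 2.36 higher in Slit2-Tg hearts on the log2 scale with a pseudocount of 0.1, which moved its interaction from -0.57 to -2.20. Mir212 could not be fitted with a filter of 10 reads in every library. Nor did it pass the filter without the 2 libraries with most atrial transcripts, so its values were not checked in that alternative. Depth limits what can be said of Mir212 and Mir132. TMM scaling moved the median of all genes by -0.0052 to 0.0041.

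Genotype differences near 0 changed sign easily. Without the 2 libraries with most atrial transcripts, the Slit2-IR against C57-IR difference was -0.15 for Sik2, -0.15 for Pde4d and 0.22 for Rgs2, the difference over both perfusions was -0.10 for Sik3 and 0.021 for Rgs2, and the interaction was 0.14 for Crem and 0.12 for Pde4b. Leaving out 1 library at a time gave ranges that crossed 0, with the cause not tested. After IR these were -0.17 to 0.38 for Mir212, -0.19 to 0.22 for Crem, -0.047 to 0.26 for Sik1, -0.090 to 0.13 for Sik2, -0.27 to 0.063 for Sik3, -0.16 to 0.23 for Pde4b, -0.092 to 0.20 for Pde4d and -0.40 to 0.23 for Rgs2. Without IR they were -0.18 to 0.28 for Sik1, -0.0048 to 0.33 for Pde4b and -0.082 to 0.27 for Ppargc1a. Over both perfusions they were -0.060 to 0.15 for Crem, -0.055 to 0.18 for Sik1, -0.086 to 0.081 for Sik3 and -0.29 to 0.028 for Rgs2. For the interaction they were -0.25 to 0.16 for Crem, -0.21 to 0.27 for Sik1, -0.35 to 0.042 for Pde4b and -0.22 to 0.41 for Rgs2. The Sik1 share differed between genotypes by -2.14 to 7.05 points after IR and by -7.60 to 3.57 points without IR.

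Of the 94 pathway genes, 3 passed with IR in C57BL/6J hearts, and 1 with no filter, with only the 6 libraries compared or without the 2 libraries with most atrial transcripts, and 1 to 8 without 1 library. In Slit2-Tg hearts 3 passed, 1 with no filter, 5 with limma-voom and 1 to 5 without 1 library. Over both genotypes the count was 9 to 13 without any 1 library and 14 with limma-voom. A replicate block gave counts of 7, 5 and 17 in place of 3, 3 and 10, of which 2 of the 17 were genes of cAMP production and 1 was of the SIK upstream list, and the block changed no call of a member.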
